A study of Mus musculus with 9 samples.

Results

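The genes described here encode the enzymes of cholesterol and fatty acid synthesis together with their regulators. There are 36 of them among the 23337 gene symbols of the count table. They were taken from a list of symbols covering sterol synthesis (16 genes), control of the SREBP transcription factors (6 genes), fatty acid synthesis and desaturation (10 genes) and sterol sensing and efflux through the liver X receptors, LXR (4 genes). All 36 were found in the table. They were listed by symbol for their role, at a time when earlier results of these data were known.

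RNA was sequenced from immortalised mouse embryonic fibroblasts (MEFs) of a mixed C57BL/6 and 129 background. All 9 cultures were Cebpb-knockout (ko), so every group, the control included, lacked C/EBPβ from its own gene. C/EBPβ is a transcription factor made from a single mRNA as long activating isoforms (LAP) and a short isoform without the activation domains (LIP). The cells had been stably transfected with rat LAP, with rat LIP or with the empty vector (EV) and selected with Zeocin. There were 3 libraries per group, numbered 1 to 3 in the labels. Age does not apply to these lines, no further treatment was given in the labels, and the sources used here do not say whether each line was 1 clone or a pool, nor whether the libraries of a group came from separate cultures. The p-values therefore measure the spread between libraries, which may be technical.

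Cholesterol and fatty acids are built from cytosolic acetyl-CoA. SREBP2, encoded by Srebf2, drives the sterol enzymes, and SREBP1, encoded by Srebf1, drives mainly the fatty acid enzymes. SCAP escorts both precursors from the endoplasmic reticulum to the Golgi when sterols are scarce, while the INSIG proteins hold the complex back when sterols are plentiful. The LXR receptors, activated by oxysterols, switch on sterol export and the ubiquitin ligase encoded by Mylip, which degrades lipoprotein receptors. In fibroblasts these pathways serve membrane growth.

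Total counts per library lay between 24839139 and 33522082. Values below are CPM, counts scaled to a common library size by TMM over all 9 libraries, and 3 counts, used as the floor of detection, stood for 0.0895 to 0.121 CPM under scaling by total counts alone. These floors cover counting error only. Reads on mouse Cebpb gave 25.2 to 33.3 CPM in all 9 libraries. Whether reads of the rat sequence were counted there was not tested, so these values do not check the groups. Fibroblast markers summed to 35259 to 39728 CPM in EV, 29442 to 43170 CPM in LAP and 17012 to 30253 CPM in LIP, with 0 of 10 markers at 0 counts in any group. Plin1, which coats the adipocyte lipid droplet, was at 0 in all 9 libraries, and Adipoq did not exceed 0.0719 CPM in any library.

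The sequence upstream of the members was examined because C/EBP proteins and SREBPs bind DNA at short motifs. The 250 bases before the transcription start were available from RefSeq on GRCm38.p6 for 28 of the 36 genes, in 36 windows, among 32851 windows of all genes. On both strands, a C/EBP-type motif, TTNNGCAA, was found in 9.56% of all windows and in 5.56% of the members' windows, from 2 genes, Dhcr7 and Nsdhl. The SRE-type motif TCACNCCAC was found in 1.05% of all windows and in 2.78% of the members' windows, from 1 gene, Hmgcs1. CCAAT boxes, the site of the factor NF-Y, were found in 33.8% of all windows and in 55.6% of the members' windows, and GC boxes, GGGCGG, in 32.7% and 69.4%. The E-box CACGTG was present in 6.02% of all windows and in 13.9% of the members' windows, from 5 genes. Matches of different motifs can share bases, and the C/EBP-type match of Nsdhl does so with a CCAAT box on the minus strand (ATTGG). A match is only a match of letters, and no binding was measured. Windows are shown for Hmgcs1, Nsdhl and Idi1, each with a match of the named motif, given in capitals. Without the replicate number in the model, Hmgcs1 was lower at an unadjusted p under 0.05 in LIP against EV alone. Idi1 was so in LIP against LAP alone, and Nsdhl in both. Sqle, Fdft1, Scd1 and Insig2 were also lower in both. No window was available for Sqle, Fdft1 and Scd1. Insig2 had matches of the CCAAT box and the GC box but none of the C/EBP-type, SRE-type or E-box motif.
Hmgcs1, chr13:119690101-119690350, plus strand, SRE-type motif starting 137 bases before the transcript: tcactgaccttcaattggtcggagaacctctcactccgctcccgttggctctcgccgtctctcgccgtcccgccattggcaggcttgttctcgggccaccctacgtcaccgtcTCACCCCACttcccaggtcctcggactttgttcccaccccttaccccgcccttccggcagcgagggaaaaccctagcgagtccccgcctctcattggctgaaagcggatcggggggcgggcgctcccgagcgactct
Nsdhl, chrX:72918271-72918520, plus strand, C/EBP-type motif starting 19 bases before the transcript: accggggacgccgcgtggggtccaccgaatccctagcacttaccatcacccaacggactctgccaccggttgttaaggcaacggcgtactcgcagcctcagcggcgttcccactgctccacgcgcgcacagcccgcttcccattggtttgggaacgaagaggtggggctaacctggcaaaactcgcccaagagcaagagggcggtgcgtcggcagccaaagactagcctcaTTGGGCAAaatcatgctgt
Idi1, chr13:8885356-8885605, plus strand, CCAAT boxes on the minus strand (ATTGG) starting 45 and 14 bases before the transcript: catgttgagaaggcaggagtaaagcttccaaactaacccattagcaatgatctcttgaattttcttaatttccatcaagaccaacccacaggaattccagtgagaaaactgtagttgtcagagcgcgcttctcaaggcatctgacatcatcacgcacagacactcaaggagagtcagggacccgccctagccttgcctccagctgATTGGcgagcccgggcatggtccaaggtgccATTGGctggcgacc

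Per kilobase of exon, the most abundant members in EV were Scd2, a stearoyl-CoA desaturase, at 175 CPM per kb, and the polyunsaturated fatty acid desaturases Fads1 and Fads2 at 101 and 77.3 CPM per kb. Among the sterol enzymes Cyp51, the lanosterol demethylase, stood at 71.6 CPM per kb, Sqle, the squalene epoxidase, at 67.6 CPM per kb and Hmgcs1, the HMG-CoA synthase, at 52.7 CPM per kb. Srebf2 was at 62.6 CPM per kb and Fasn, the fatty acid synthase, at 56.1 CPM per kb. Levels of different genes can be set side by side only with caution. In all, 9 members had a mean below 5 CPM, namely Abcg1, Lpin1, Scap, Mvd, Acss2, Pmvk, Fdps, Acly and Tm7sf2, and the handling of reads that fit several transcripts or copies is not given in the sources used here. Exons of Fdft1 overlap those of the lysosomal protease gene Ctsb over 774 bases on the opposite strand, and exons of Fdps overlap a gene model on the same strand, Gm43738, over 1124 bases (GENCODE M21). For Acss2, Cyp51, Srebf1 and Tm7sf2 exons are also shared with protein-coding neighbours, and Acat2 has a neighbouring paralog, Acat3, so the counts of these genes are uncertain to that extent. In the same table Gapdh had a mean of 120 CPM and Eef1a1 of 8988 CPM. Abcg1, a sterol exporter, had 0 counts in 7 libraries, 4 counts in 1 LAP library and 1 count in 1 LIP library. Lpin1, a phosphatidate phosphatase, had at most 4 counts in any library, so no fold change is given for either gene.

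In LIP against EV, the median log2 fold change of the sterol synthesis genes was below 0. Library LIP 1 nevertheless lay above EV 3 in their median level. Of the 36 members, 0 passed an adjusted p of 0.05. The comparison asks what the short isoform does to these genes in cells with no C/EBPβ of their own. Of the 18203 genes tested, 0.396% passed that threshold in either direction. With filterByExpr, which left 12424 genes to test, 4 passed. At an unadjusted p under 0.05, 11 of the 36 members were lower in LIP and 0 were higher, against 6.75% lower and 4.23% higher among all genes tested. The log2 fold change was below 0 for 28 of 36 members, against 46% of all genes, and its median was -0.30 for the members and 0.04 for all genes. Groups did not overlap for 9 members lower and 2 higher in LIP, where 8.83% and 6.8% of all genes showed this. The 2 without overlap in the higher direction were Nr1h2, the gene of LXRβ, and Lpin1, which lay near the floor.

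All 16 sterol synthesis genes had a log2 fold change below 0 in LIP against EV, lying between -0.69 and -0.04 around a median of -0.45. With scaling by total counts alone 15 of 16 did, and 14 to 16 did with any 1 library left out, when the median lay between -0.58 (without LIP 1) and -0.27 (without LIP 3). At an unadjusted p under 0.05 there were 7, Acat2, Hmgcs1, Mvk, Fdps, Fdft1, Sqle and Nsdhl, and of these Sqle alone had values that overlapped between the groups.

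The first steps join acetyl-CoA units. Acat2, the cytosolic acetoacetyl-CoA thiolase (chromosome 17 of GRCm38.p6, 12943042 to 12960725), had 59.3, 54.4 and 59.9 CPM in EV, 59.2, 60.3 and 44.3 CPM in LAP and 50.5, 33.2 and 32.9 CPM in LIP. Every LIP library lay below every EV library, and LIP 1 also lay above LAP 3. Hmgcs1 (chromosome 13, 119690351 to 119708260), whose promoter is printed above with its SRE-type motif, had 191, 190 and 169 CPM in EV, 182, 191 and 138 CPM in LAP and 147, 106 and 117 CPM in LIP. Again LIP stood apart from EV and not from LAP, where LAP 3 fell between the LIP libraries. Its log2 fold change in LIP against EV was -0.57 ± 0.17 (SE), 0.673 of the EV level, and edgeR's adjusted p was 0.192. Mvk, mevalonate kinase (chromosome 5, 114444264 to 114460591), had 39.0, 38.5 and 33.3 CPM in EV, 35.1, 34.2 and 26.8 CPM in LAP and 29.2, 25.8 and 20.4 CPM in LIP. Its log2 fold change was -0.55 ± 0.18 (SE; edgeR adjusted p = 0.241), and the highest LIP library lay under the lowest EV library.

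The middle steps make isoprenoids and squalene. Idi1, the isopentenyl diphosphate isomerase (chromosome 13, 8885606 to 8892396), had 114, 144 and 104 CPM in EV, 120, 225 and 94.7 CPM in LAP and 106, 103 and 69.1 CPM in LIP. The LAP group was spread widely, with LAP 2 well above every other library. Fdps, farnesyl diphosphate synthase (chromosome 3, 89093588 to 89101967), had 4.85, 5.09 and 4.92 CPM in EV, 4.56, 5.50 and 3.29 CPM in LAP and 4.45, 2.49 and 2.65 CPM in LIP. LIP 1 was close to EV and the other LIP libraries were not. Fdft1, squalene synthase (chromosome 14, 63145150 to 63181687), had 70.7, 68.6 and 57.2 CPM in EV, 71.8, 68.1 and 46.9 CPM in LAP and 55.2, 39.2 and 34.5 CPM in LIP. Its log2 fold change in LIP against EV was -0.61 ± 0.19 (SE; edgeR adjusted p = 0.229), and its LIP values lay below all EV values.

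The late steps turn squalene into sterols. Sqle (chromosome 15, 59315092 to 59331193) had 203, 216 and 140 CPM in EV, 258, 198 and 136 CPM in LAP and 173, 95.2 and 78.8 CPM in LIP. LIP 1 lay above EV 3 and LAP 3, so the groups overlapped, while each LIP library was below the EV and the LAP library of its own number. Nsdhl, a sterol dehydrogenase of the demethylation steps (chromosome X, 72918521 to 72958528), had 36.4, 43.1 and 31.9 CPM in EV, 38.1, 38.4 and 33.7 CPM in LAP and 30.6, 21.3 and 25.5 CPM in LIP. For Nsdhl the LIP libraries lay below all 6 others. The other sterol enzymes overlapped between LIP and EV. Among them were Cyp51, with a mean of 281 ± 54.2 CPM over the EV libraries and of 241 ± 42.0 CPM over the LIP libraries (SD, n = 3 each), Lss, Dhcr7, Hsd17b7, Ebp, Pmvk, Mvd and the sterol reductase Tm7sf2.

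**Figure D1:**
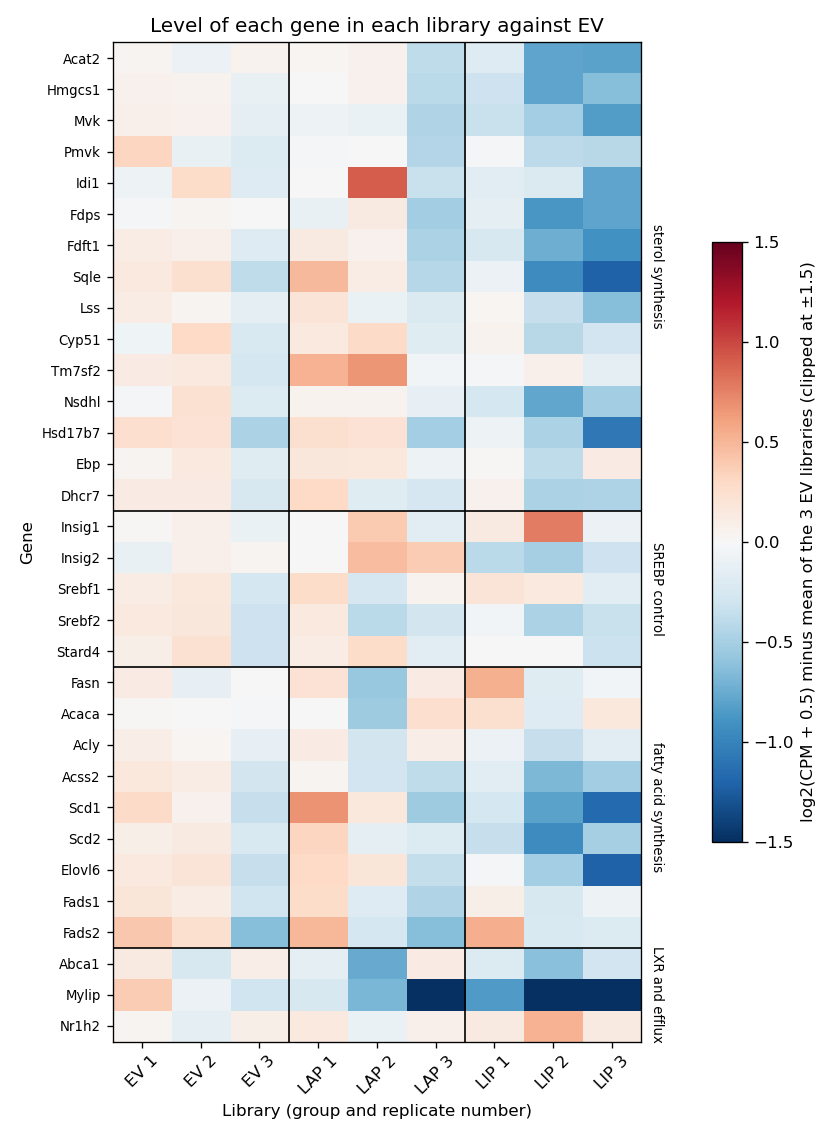
Level of each member with a mean of at least 1 CPM (rows, by role) in each of the 9 libraries (columns), as log2(CPM + 0.5) minus the mean of the 3 EV libraries, with colours limited to ±1.5. Blue cells, lower than EV, gather in LIP 2 and LIP 3 among the sterol synthesis genes, and LIP 1 is paler, with a median of -0.08 against -0.48 and -0.64. The medians of LAP 3, at -0.38, and EV 3, at -0.20, also lie below that of LIP 1.

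The sterol genes also differed between libraries of 1 group. Over the 15 with a mean of at least 1 CPM, the median of log2(CPM + 0.5) relative to the EV mean was 0.08, 0.12 and -0.20 in EV 1, 2 and 3, 0.14, 0.06 and -0.38 in LAP 1, 2 and 3, and -0.08, -0.48 and -0.64 in LIP 1, 2 and 3. By this median LIP 1 lay above EV 3 and LAP 3, so the groups overlapped. Library 3 held the lowest value of its group for 13 of the 15 genes in EV, for 15 in LAP and for 9 in LIP. Library 1 held the highest LIP value for 13. Without LIP 1, 17 members instead of 11 were lower than EV at an unadjusted p under 0.05, and Acat2, Sqle and Mylip passed the adjusted threshold. Genes called in all at the adjusted threshold rose there too, from 72 of 18203 to 282 of 18094. The unadjusted share of all genes was not taken for that setting. Without EV 2 the unadjusted count of members was 7, and 22 of 18091 genes passed the adjusted threshold. What sets the numbered libraries apart is not given in the sources used here.

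Among the SREBP control genes, 1 of 6 was lower in LIP than in EV at an unadjusted p under 0.05, with values on both sides of 0 for the others. Insig2, which retains SCAP in the endoplasmic reticulum (chromosome 1, 121304353 to 121332662), had 30.0, 34.2 and 33.5 CPM in EV, 32.5, 45.1 and 42.5 CPM in LAP and 24.5, 22.9 and 26.2 CPM in LIP. Its LIP libraries lay below all EV and all LAP libraries, and it was that gene (log2 fold change -0.41 ± 0.16, SE). Insig1, its paralog and a target of SREBP2, was at 119 ± 7.57 CPM in EV, 127 ± 26.3 CPM in LAP and 148 ± 47.9 CPM in LIP (SD, n = 3 each), and the groups overlapped. Srebf2 was at 318 ± 56.4 CPM in EV and 261 ± 41.1 CPM in LIP, also with overlap. For the whole group, which also holds Srebf1, Scap and the sterol carrier Stard4, 4 of 6 log2 fold changes were below 0 and the median was -0.20.

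Of the 10 fatty acid genes, 2 were lower in LIP than in EV at an unadjusted p under 0.05, the stearoyl-CoA desaturases Scd1 and Scd2. Scd1, which makes oleate from stearate (chromosome 19, 44394450 to 44407709), had 122, 105 and 79.0 CPM in EV, 160, 113 and 69.1 CPM in LAP and 83.7, 57.4 and 44.5 CPM in LIP. LIP 1 lay above EV 3 and LAP 3, so the groups overlapped although each LIP library was the lowest of its number. The log2 fold change in LIP against EV was -0.72 ± 0.23 (SE), 0.606 of the EV level, with an edgeR adjusted p of 0.236. Scd2, its neighbour (chromosome 19, 44293676 to 44306864), had 1009, 1042 and 805 CPM in EV, 1180, 863 and 819 CPM in LAP and 743, 492 and 670 CPM in LIP. Its LIP libraries lay below all 6 others, and its log2 fold change in LIP against EV was -0.58. The 2 desaturases are close in sequence, and how reads that fit both were counted is not given, so their separate values are uncertain. Elovl6, the elongase of palmitate (chromosome 3, 129532386 to 129638495), had 77.7, 80.8 and 55.4 CPM in EV, 86.9, 80.1 and 54.9 CPM in LAP and 69.7, 49.3 and 30.0 CPM in LIP. Its lowest values were LIP 2 and LIP 3, and LIP 1 lay among the others.

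Fasn was at 563 ± 48.5 CPM in EV, 548 ± 148 CPM in LAP and 619 ± 170 CPM in LIP (SD, n = 3 each), with overlap throughout. Fads2 was highest in library 1 of every group, at 308, 274 and 149 CPM in EV, 329, 193 and 149 CPM in LAP and 340, 199 and 202 CPM in LIP. Over the 10 fatty acid genes, which also include Acaca, Acly and Acss2, 6 log2 fold changes were below 0 in LIP against EV, with a median of -0.15. Lpin1 is among the 10 and enters this count and median although it lay near the floor.

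Mylip had the smallest p of all members in LIP against EV. This LXR target (chromosome 13, 45389742 to 45411940) had 10.4, 7.34 and 6.24 CPM in EV, 6.54, 4.67 and 1.96 CPM in LAP and 4.12, 2.33 and 1.65 CPM in LIP. All LIP libraries lay below all EV libraries, while LAP overlapped both. The log2 fold change was -1.57 ± 0.34 (SE), 0.336 of the EV level, and edgeR's quasi-likelihood test gave an adjusted p of 0.0758. DESeq2 gave an adjusted p of 0.0024 and edgeR's exact test 0.00991, so its call depended on the test. These tests called 321 and 301 genes in all, against 72. Under the quasi-likelihood test, filterByExpr gave Mylip an adjusted p of 0.204, total counts only 0.115 and all 9 libraries in 1 model 0.101. The replicate block gave 0.00198, though these libraries do not meet the rule for pairing. The other measured LXR genes were Abca1, the sterol exporter, with a log2 fold change of -0.38 ± 0.18 (SE), and Nr1h2, with 0.28 ± 0.17 (SE), neither past an unadjusted p of 0.05. For every member without overlap the two-sided exact permutation test gave p = 0.1, the smallest it can give with 3 libraries against 3.

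**Figure D2:**
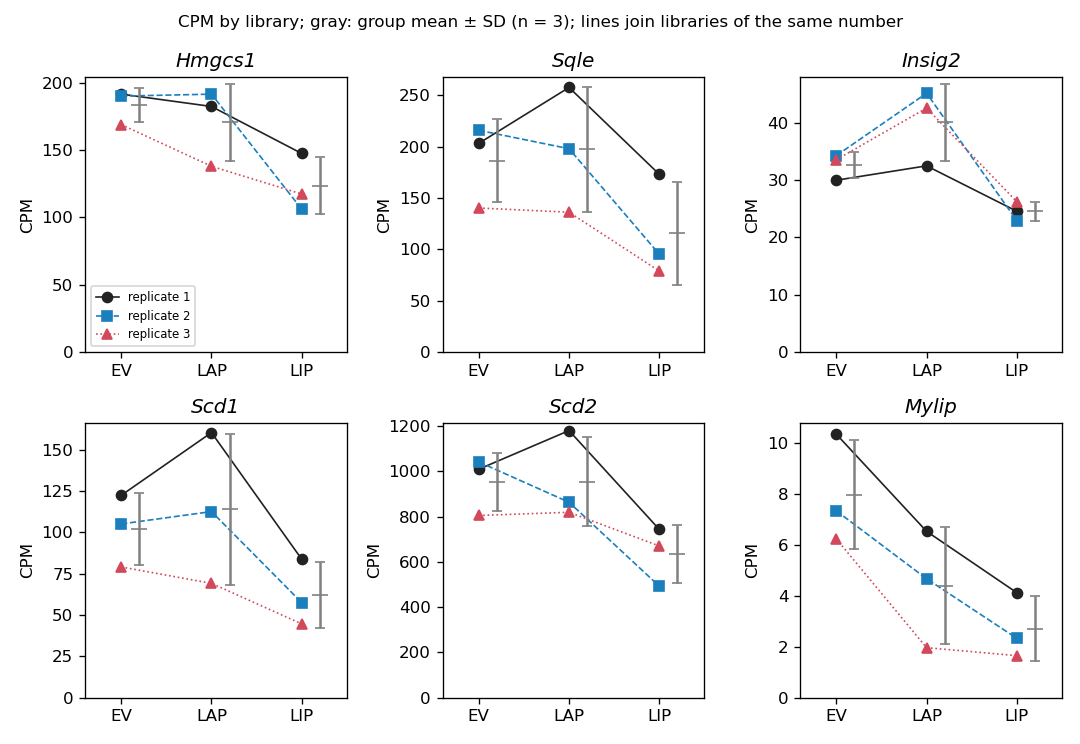
CPM of Hmgcs1, Sqle, Insig2, Scd1, Scd2 and Mylip by library, with gray bars for the group mean ± SD (n = 3) and lines joining libraries of the same number. Every gene but Insig2 has a LIP value in library 1 above those of libraries 2 and 3, and Insig2 is the sole panel in which LAP stands above EV in every number.

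In LAP against EV, the members showed little difference at this depth. Of the 36, 0 passed the adjusted threshold, as 0.0606% of the 18156 genes tested did in either direction. At an unadjusted p under 0.05, 1 member was lower and 1 higher, against 1.34% and 1.93% of all genes. The lower one was Mylip, with a log2 fold change of -0.87 ± 0.34 (SE; edgeR adjusted p = 0.918), and its groups overlapped. The higher one was Lpin1, whose EV libraries held 1, 1 and 0 counts and whose LAP libraries held 3, 4 and 4, near the floor. Next came Tm7sf2, with 0.43 ± 0.24, and Insig2, with 0.29 ± 0.16 (log2 fold change ± SE), neither past an unadjusted p of 0.05. LAP and EV libraries of the same number also deviated together, and with that number as a block 0 of 36 members passed the adjusted threshold, against 0.297% of all genes. The block left, at an unadjusted p under 0.05, 1 member lower, Mylip (log2 fold change -0.97 ± 0.21, SE; edgeR adjusted p = 0.0507), and 1 higher, now Tm7sf2 (0.41 ± 0.18, SE; adjusted p = 0.796) in place of Lpin1, against 2.58% and 3.5% of all genes. Of all 36 members 21 had a log2 fold change below 0, against 47.8% of all genes. Of the 16 sterol genes 10 did, with a median of -0.03, and for the 15 with at least 1 CPM the standard errors lay between 0.158 and 0.260. That count was 2 of 16 without LAP 3 and 14 of 16 without EV 3. The difference between the effects of LIP and LAP on EV is the comparison of LIP with LAP, because both share the EV libraries.

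**Figure D3:**
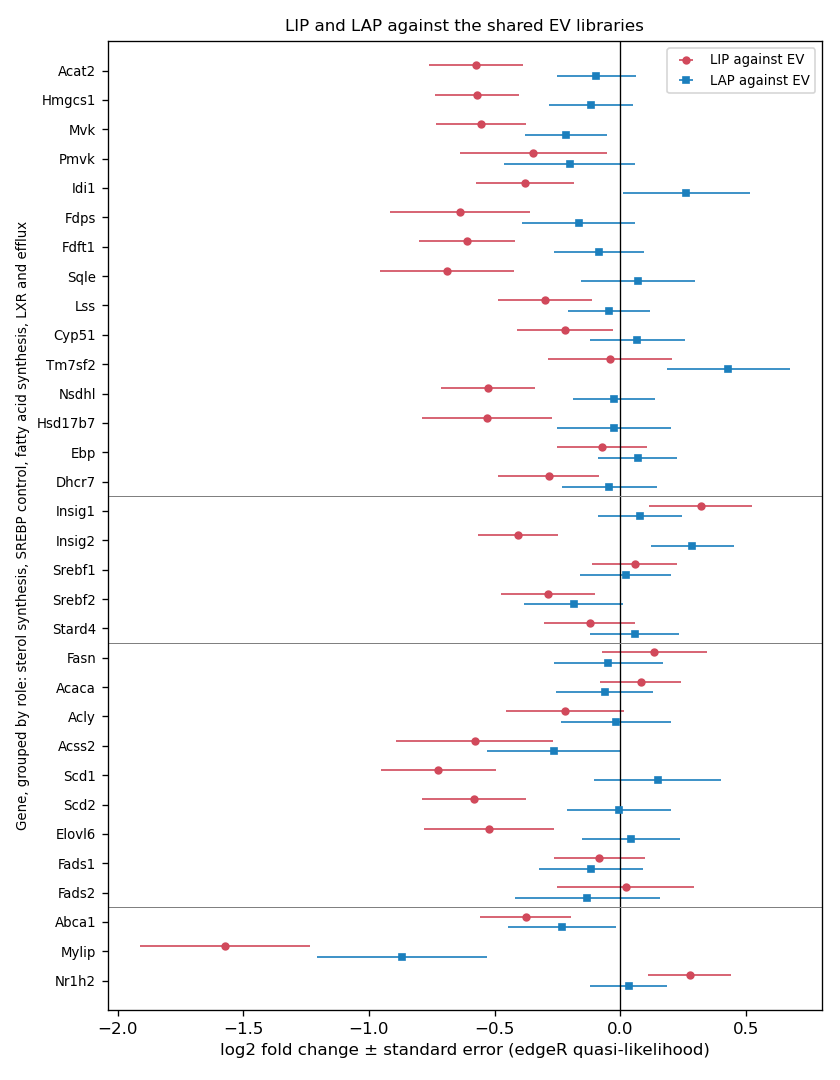
Log2 fold change ± standard error of the 32 members with a mean of at least 1 CPM, in LIP against EV (circles) and LAP against EV (squares), which share the 3 EV libraries. The sterol synthesis genes have a median of -0.45 in LIP and -0.03 in LAP, and Mylip lies farthest to the left in both.

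In LIP against LAP, which sets the isoforms against each other, 0 of 36 members passed the adjusted threshold in the model without the replicate number, against 1.05% of the 18166 genes tested. At an unadjusted p under 0.05, 6 members were lower in LIP and 0 higher, against 5.98% and 3.3% of all genes. They were Insig2, with a log2 fold change of -0.69 ± 0.22 (SE; edgeR adjusted p = 0.194), Scd1, with -0.86 ± 0.28 (adjusted p = 0.224), Sqle, with -0.75 ± 0.29 (adjusted p = 0.359), Idi1, with -0.63 ± 0.28 (adjusted p = 0.472), Nsdhl, with -0.49 ± 0.22 (adjusted p = 0.485), and Fdft1, with -0.52. All 16 sterol genes were again below 0, with a median of -0.45 (-0.53 to -0.30 with any 1 library left out, the latter without LIP 3), and 29 of 36 members were below 0 against 47.4% of all genes. Without overlap and lower were 3 members, Nsdhl, Insig2 and Scd2, against 6.58% of all genes, and 0 were higher without overlap, against 6.23%.

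Libraries of the same number deviated together in LAP and LIP, so this comparison was also made with that number as a block in the model. Then 6 members fell in LIP at an adjusted p under 0.05 and 0 rose, where 4.79% of all genes tested were called lower and 1.72% higher. Scd1 fell by 0.83 ± 0.17 on the log2 scale (SE; edgeR adjusted p = 0.000307) and Sqle by 0.79 ± 0.18 (adjusted p = 0.000737). Insig2 fell by 0.68 ± 0.18 (adjusted p = 0.00887) and Elovl6 by 0.61 ± 0.18 (adjusted p = 0.0162). Scd2 fell by 0.57 ± 0.18 (adjusted p = 0.0313) and Idi1 by 0.57 ± 0.18 (adjusted p = 0.0348). Mylip, at -0.64 ± 0.27, was not called (adjusted p = 0.167). At an unadjusted p under 0.05, 12 members were lower, against 9.45% of all genes.

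These 6 calls are a desaturase pair and the elongase that supplies it, an epoxidase and an isomerase of the sterol route, and the SREBP anchor Insig2. Within numbers 1, 2 and 3, the difference in log2(CPM + 0.5) between LIP and LAP was -0.93, -0.96 and -0.63 for Scd1, -0.57, -1.05 and -0.79 for Sqle and -0.40, -0.96 and -0.69 for Insig2. For Idi1 it was -0.17, -1.13 and -0.45, so that most of it came from number 2, in which LAP was high. In all 3 pairs, 13 of 16 sterol genes, 3 of 6 SREBP control genes, 5 of 10 fatty acid genes and 1 of 4 LXR genes were lower in LIP, against 18.2% of all genes tested. Leaving out both libraries of number 1 left 1 call, Sqle. Without number 2 there were 2, Sqle and Scd1, and without number 3 there was 1, Scd1. Genes called in all fell too, from 1183 of 18166 to 640 of 17800, 390 of 17663 and 914 of 17438 in that order. The number of calls thus changed with the libraries used, among all genes as among the members.

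**Figure D4:**
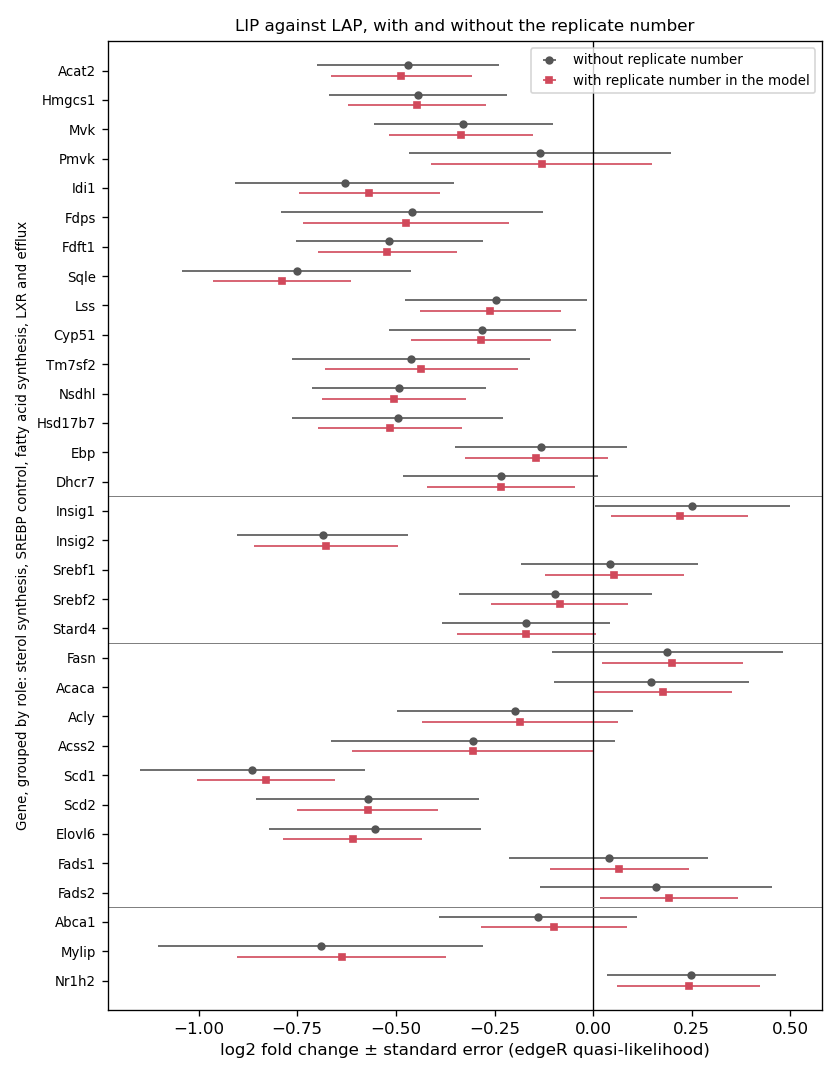
Log2 fold change ± standard error of the 32 members with a mean of at least 1 CPM in LIP against LAP, from the model without (circles) and with (squares) the replicate number. The estimates barely move and the standard errors of most members shrink, as for Scd1, from 0.28 to 0.17.

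The other genes of these pathways were taken from a list of 26, of which 25 were tested. It holds further sterol enzymes, the proteases and ubiquitin ligases that act on SREBP and INSIG, and enzymes of lipid supply and esterification. In LIP against EV 0 of 25 passed the adjusted threshold and 2 were lower at an unadjusted p under 0.05, a share near the 6.75% of all genes. They were the sterol desaturase Sc5d, with a log2 fold change of -0.43, and the methylsterol oxidase Msmo1, with -0.54, while 19 of 25 were below 0, against 46% of all genes, with a median of -0.22. In LAP against EV none had an unadjusted p under 0.05 and 14 were below 0. In LIP against LAP Msmo1, listed as Sc4mol, had 140, 205 and 87.9 CPM in LAP and 112, 73.6 and 58.8 CPM in LIP. With the block it fell by 0.77 on the log2 scale (edgeR adjusted p = 0.00171), the sole call among the 25, where 4.79% of all genes were called lower, and without the block 0 were called.

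Of the adipocyte markers, 7 were tested in LIP against LAP and 1, Lpl, passed the adjusted threshold. The 8 adipocyte markers summed to 20.9 to 26.9 CPM in EV, 21.2 to 60.9 CPM in LAP and 1.97 to 17.2 CPM in LIP, and 2, 1 and 1 of them had 0 counts in a whole group. Lpl, the lipoprotein lipase, which cells other than adipocytes also make, held the largest share of that sum in each LAP and LIP library, with 58.1, 42.1 and 20.0 CPM in LAP and 16.0, 5.24 and 1.42 CPM in LIP. Lpl fell in LIP against LAP by 2.39 on the log2 scale (edgeR adjusted p = 0.0372). With filterByExpr 2 of 12419 genes were called in this comparison, and whether Lpl was among them was not examined. Fibroblast markers had a median log2 fold change of -0.95 in LIP against EV and -0.89 in LIP against LAP, with 6 of 10 lower at an unadjusted p under 0.05 in each and 0 past the adjusted threshold. With the replicate block that gave the 6 lipid calls, 7 of the 10 fell in LIP against LAP at an adjusted p under 0.05, among them Col1a2 by 1.03 and Thy1 by 1.18 on the log2 scale (edgeR adjusted p = 5.8e-06 and 3.53e-07). The part of these shifts in the values of the lipid genes was not tested, and fewer cells of a kind and less RNA per cell cannot be told apart in such libraries. The 4 epithelial markers summed to 402 to 481 CPM in EV, 389 to 742 CPM in LAP and 505 to 797 CPM in LIP, nearly all of it Krt8, and 0 of 4 had 0 counts in a whole group. In LIP against EV, Krt8 (log2 fold change 0.48) and Krt18 (0.99) were higher and Cdh1 (-1.10) lower at an unadjusted p under 0.05, each without overlap, and 0 passed the adjusted threshold. Their part in the lipid values was not tested either. Macrophage markers summed to 3.54 to 8.91 CPM over all libraries and hepatocyte markers to at most 0.555 CPM.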

How the data were processed

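Immortalised Cebpb-ko MEFs that express LAP, LIP or the empty vector were sequenced by the authors with 50-base single reads, in 3 libraries per group. The authors aligned the reads to mm10 with TopHat 1.4.1 and deposited raw counts per gene, made with HTSeq 0.5.4 on RefSeq genes and not normalized. Builds and tools follow the submitters' processing notes, which also list GRCh38. Strand setting and multi-mapping reads are not given in the sources used here, so overlapping genes on opposite strands cannot be told apart. Groups came from the labels, and 0 columns were left unused. Total counts ranged from 24839139 to 33522082, which limits values under 0.0895 to 0.121 CPM (3 counts).

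Tests were made on 6 libraries at a time, leaving out genes without a single count in them (minimum 1). After TMM scaling, genes were tested by edgeR 4.0.16 under R 4.3.3 (quasi-likelihood, no covariate), with Benjamini-Hochberg adjustment over all genes and a threshold of 0.05. The standard error is the size of the log2 fold change over the root of F. An exact permutation test, two-sided, of log2(CPM + 0.5) was added for single genes. Levels per kilobase used the exon union of GENCODE basic transcripts. The scripts were tested on simulated data.

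Libraries of the same number were taken as paired where the deviations of every pair correlated above 0.1 over 10993 genes with a mean above 1 CPM. This held for LAP and EV (r = 0.56, 0.23 and 0.53) and for LIP and LAP (0.59, 0.43 and 0.49), and not for LIP and EV (0.33, -0.12 and 0.25). These r are across genes and come from the same counts as the tests, and the labels do not say what a number stands for. Calls made with the block in LIP against LAP should not be set against those made without it in LIP against EV.

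All 36 members are named, with statistics for those past the threshold and for the 5 smallest p in each comparison, and values in every library for those with an unadjusted p under 0.05 in any. Elovl6 and Fads2 were added after their values were seen. The members, lists and tests were chosen with earlier results of these data known. Alternatives were DESeq2 1.42.0, edgeR's exact test, scaling by DESeq2's size factors or by total counts only, filterByExpr, all 9 libraries in 1 model, the replicate number as a block and each library left out in turn. Figures were drawn with matplotlib 3.10.9.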

Additional observations from a re-analysis of the deposited data

How the results depend on the processing

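Under the alternatives run, no member or count past a threshold changed direction. In LAP against EV the small medians did, between -0.18 and 0.07 for the sterol genes with 1 library left out and up to 0.10 for the fatty acid genes. In LIP against EV, the members lower at an adjusted p under 0.05 numbered 0 in the report and 1 by DESeq2 and by edgeR's exact test, in both cases Mylip, and 0 to 3 with 1 library left out, where Mylip passed without LIP 1 and without LIP 3 and its log2 fold change ran from -2.0 to -1.30. At an unadjusted p under 0.05, 7 to 17 members were lower and 0 to 1 higher with 1 library left out. Genes called in all at the adjusted threshold then numbered 22 to 367. These libraries do not meet the rule for pairing, and the replicate block gave 2 calls, Mylip (-1.63, edgeR adjusted p = 0.00198) and Scd1 (-0.75, adjusted p = 0.02), as genes called in all rose from 72 to 467 and fibroblast markers called from 0 to 3 of 10. In LAP against EV, the member higher at an unadjusted p under 0.05 was lost by DESeq2 and by filterByExpr (0 each), the lower one by filterByExpr (0), and leaving out 1 library gave 0 to 2 higher and 0 to 1 lower. The replicate block changed no adjusted call there, and the unadjusted higher member was then Tm7sf2 and not Lpin1. In LIP against LAP, the replicate block gave 6 adjusted and 12 unadjusted lower members, and genes called in all rose from 190 to 1183. Total counts only gave 3 unadjusted, and leaving out 1 library gave 2 to 12 unadjusted and 0 to 1 adjusted, the 1 being Scd1 without LAP 3. There the median log2 fold change of the fatty acid genes ran from -0.39 to -0.11. Chosen after seeing the data were combinations with the block in this comparison, which gave 5 adjusted calls with DESeq2, 6 with its size factors, 5 with total counts only, 3 with filterByExpr (Scd1, Sqle and Insig2) and 1 to 2 without both libraries of 1 number. Scd1 and Sqle were called in each of these but the last. Genes called in all numbered 789, 1179, 1199 and 557 in that order, and 390 to 914 without both libraries of 1 number. Without the block, filterByExpr lowered the genes called in all to 4 of 12424 in LIP against EV and 3 of 12514 in LAP against EV. In LIP against LAP 2 of 12419 were left. The causes of these changes were not tested. Abcg1 and Lpin1 are limited by depth.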
